A study of Mus musculus with 12 samples.

Results

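The core circadian clock genes of mouse liver are described here through their LSD1 and H3K4me2 peaks. The members were taken by name: Arntl, Clock, Per1, Per2, Per3, Cry1, Cry2, Nr1d1, Nr1d2 and Dbp, which are 10 of the 21853 protein-coding genes of GENCODE mouse release 21 on GRCm38 (mm10). For each, the gene body and 20 kb on either side were searched, and this stretch is called the window. LSD1 ChIP-seq was performed on wild-type C57BL/6 liver with 2 libraries, and H3K4me2 ChIP-seq on C57BL/6 control and LSD1-LKO liver with 2 libraries each. In both H3K4me2 groups the adult mice carried loxP-flanked Lsd1 and received AAV8, which expressed GFP in controls and Cre recombinase in LSD1-LKO mice from the hepatocyte-directed Tbg promoter, so other liver cells kept the gene. The peak lists hold no reads and cannot show the deletion of Lsd1, and the time of day at which the livers were collected is not given in the sources used here. The methods describe high-fat feeding of LSD1-LKO and control mice after the virus was given, but the labels and the ChIP-seq methods do not name the diet of the livers used here. The 2 samples of a group are separate in the labels, which do not say that they came from separate animals.

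In the clock, BMAL1 (encoded by Arntl) and CLOCK activate transcription as a heterodimer at E-boxes, and the PER and CRY proteins they induce repress that activity. REV-ERBα and REV-ERBβ (Nr1d1 and Nr1d2) repress Arntl through RRE elements, and DBP activates genes through D-boxes. H3K4me2 marks active promoters and enhancers, LSD1 removes methyl groups from H3K4me1 and H3K4me2, and in liver the clock times metabolic genes over the day.

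The deposited lists held 14584 LSD1 entries, 43891 control H3K4me2 entries and 50675 LSD1-LKO H3K4me2 entries, each a peak of the first-listed library that overlapped a peak of the second-listed library of that group. Sequencing depth is unknown. Unless said otherwise, positions are those of the first-listed library, paired values give the first-listed and then the second-listed library, and a promoter is 1 kb on either side of any annotated transcription start site (TSS) of the gene. Fold enrichment is the ChIP signal over the control library at a peak, and values from different lists are set side by side with no test of their difference. A percentile gives a peak's place among all peaks of the same list, ordered by the −log10 p averaged over both libraries. As a check of the tissue label, a promoter H3K4me2 peak was listed at 5 of 6 hepatocyte marker genes in control and 6 of 6 in LSD1-LKO liver, with Alb listed only in LSD1-LKO. Of 8 markers of other liver cells, 1 had such a peak in control (Epcam) and 2 in LSD1-LKO (Epcam and Lrat), and those defining Kupffer cells (Clec4f and Adgre1), endothelium (Stab2), T cells (Cd3e) and B cells (Cd79a) had none in either.

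The clock genes carried promoter H3K4me2 throughout, and a subset also carried LSD1. All 10 had a promoter H3K4me2 peak in control liver, where 58.8% of all protein-coding genes did, and all 10 had one in LSD1-LKO liver, against 58.9%. An LSD1 promoter peak was present at 5 of 10, namely Clock, Per3, Cry1, Cry2 and Nr1d1, compared with 23.6% of all protein-coding genes and 38.8% of the genes with a control H3K4me2 promoter peak. Across the whole window, 9 of 10 had an LSD1 peak, against 51.4% of all genes, and Nr1d2 was the member without one. The 10 windows span 0.832 Mb and held 26 LSD1 peaks, 85 control H3K4me2 peaks and 98 LSD1-LKO H3K4me2 peaks. Per 100 kb of window this was 3.12 LSD1, 10.2 control and 11.8 LSD1-LKO peaks, compared with 1.05, 3.63 and 4.13 over the windows of all protein-coding genes. The order of the H3K4me2 groups turned by the second-listed library alone, with 67 control and 64 LSD1-LKO peaks, and with the intervals of both libraries merged, with 63 and 61. When peaks were limited to p of at most 1e-05, or q of at most 0.05, in each library, Clock was the 1 member left with an LSD1 promoter peak and the windows held 5 LSD1 peaks, while all 10 promoters kept H3K4me2 in both groups. These densities include peaks at neighboring genes, which the windows also take in.

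**Figure D1:**
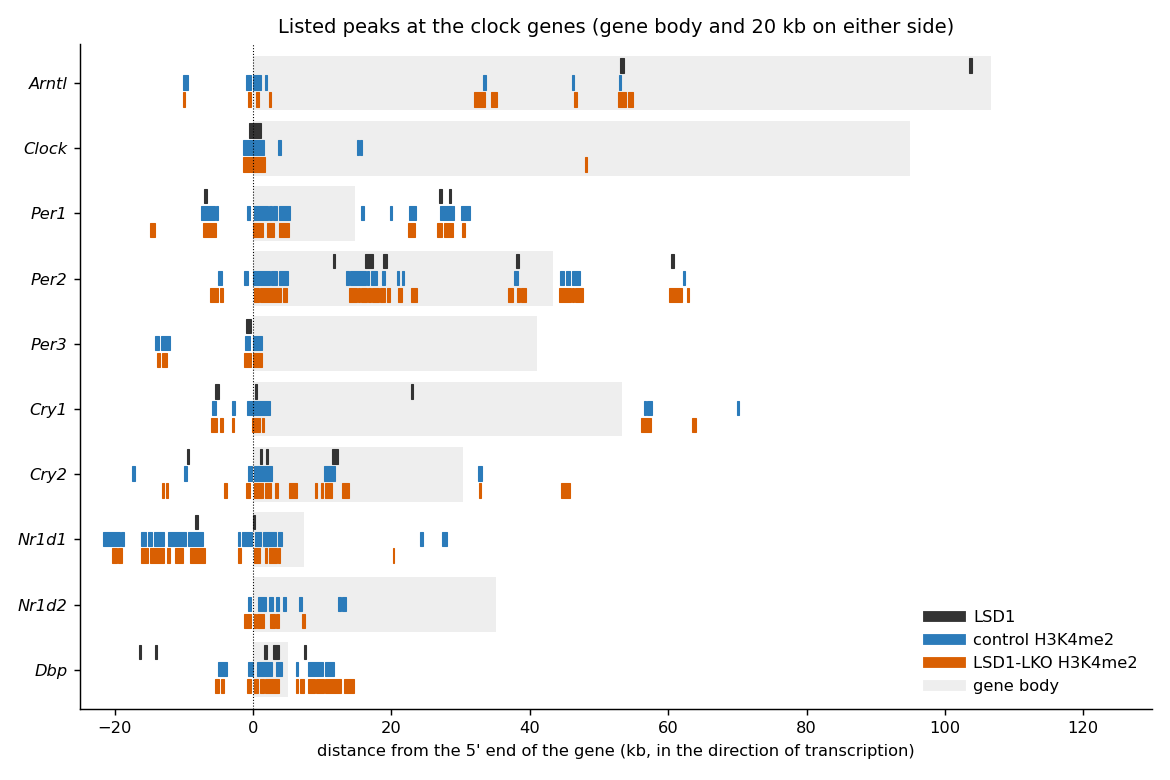
Peaks listed at the 10 clock genes, by distance in kb from the 5′ end of the gene in the direction of transcription, with the gene body in gray. Each gene has rows for LSD1 (black), control H3K4me2 (blue) and LSD1-LKO H3K4me2 (orange), and the 26 LSD1 peaks lie both at the 5′ end and far from it.

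The LSD1 peaks of the clock windows lay both at promoters and away from them. Of the 26, 5 touched the member's own promoter, 5 touched the promoter of a neighboring gene and 16 were distal, 11 of these within the member's gene body. The share at a promoter, 38.5%, was close to the 35.1% of all LSD1 peaks. By the position of their centers, 14 were intronic, 4 intergenic, 4 in a coding exon and 4 in a UTR. They were not confined to the top of the LSD1 list: the median percentile was 44.7 and 11 of 26 ranked above the 50th percentile. Of the 26, 17 (65.4%) overlapped a control H3K4me2 peak and 18 (69.2%) an LSD1-LKO H3K4me2 peak, compared with 52.5% and 53.8% of all LSD1 peaks. Among the 8 LSD1 peaks at or above the 75th percentile, 7 overlapped control and 8 overlapped LSD1-LKO H3K4me2, whereas 7 of all 26 overlapped neither list. By second-listed H3K4me2 positions, those of the 7 at Sphk2 and upstream of Cry2 overlapped control. The Dbp peak among the 8 ranked at 97.7 within the first-listed library and at 15.1 within the second-listed.

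**Figure D2:**
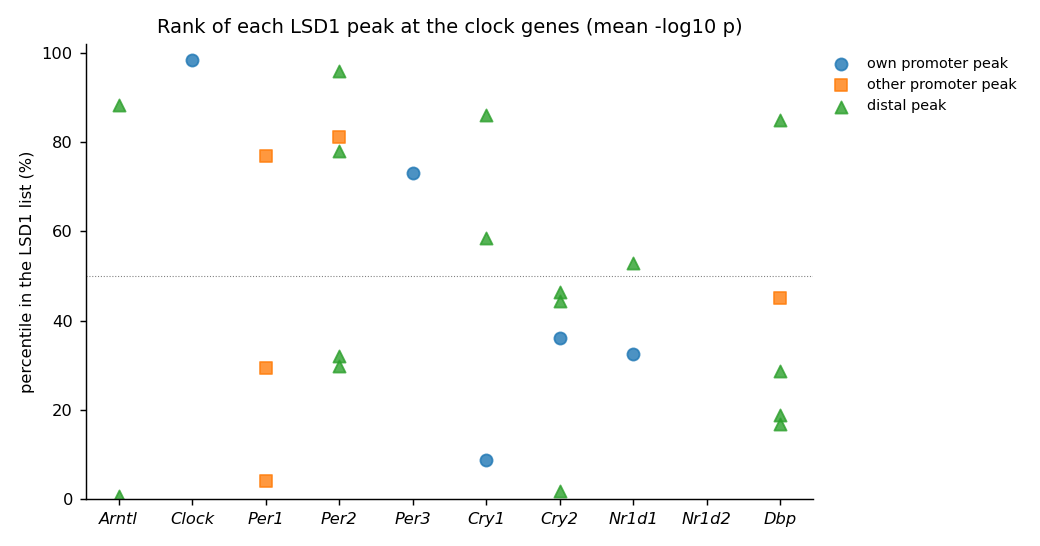
Percentile of each of the 26 LSD1 peaks within the LSD1 list (y axis, %), by clock gene (x axis), with own promoter, other promoter and distal peaks as circles, squares and triangles. Clock at 98.3 and Per2 at 95.9 are highest, and Nr1d2 has no point.

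The sequences below are the central 300 bases of LSD1 peaks, from the plus strand of GRCm38. They show the strongest distal peaks at Per2, Arntl and Cry1, the upstream peak at Per3, and the peak at Nr1d1 that holds an E-box. Capitals mark letters of a searched clock motif.
Per2 intron 6, chr1:91442441-91442740: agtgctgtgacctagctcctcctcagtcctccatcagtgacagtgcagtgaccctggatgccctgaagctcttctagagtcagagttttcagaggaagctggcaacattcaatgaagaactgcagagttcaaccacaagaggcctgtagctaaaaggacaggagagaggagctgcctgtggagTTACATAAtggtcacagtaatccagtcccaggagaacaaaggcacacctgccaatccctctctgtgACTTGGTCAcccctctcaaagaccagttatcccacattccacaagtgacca
Arntl intron 2, chr7:113260650-113260949: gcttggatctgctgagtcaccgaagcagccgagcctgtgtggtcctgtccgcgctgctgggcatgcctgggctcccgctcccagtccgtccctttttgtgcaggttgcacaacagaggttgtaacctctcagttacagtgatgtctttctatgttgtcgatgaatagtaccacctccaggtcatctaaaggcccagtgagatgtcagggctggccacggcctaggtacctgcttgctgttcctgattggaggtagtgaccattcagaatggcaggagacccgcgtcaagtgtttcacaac
Cry1 upstream, chr10:85190135-85190434: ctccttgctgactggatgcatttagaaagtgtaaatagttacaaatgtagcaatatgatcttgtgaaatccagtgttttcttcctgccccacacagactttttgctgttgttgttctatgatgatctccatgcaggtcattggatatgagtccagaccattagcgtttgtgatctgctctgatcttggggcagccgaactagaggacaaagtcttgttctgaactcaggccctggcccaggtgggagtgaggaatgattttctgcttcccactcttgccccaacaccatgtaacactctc
Per3 upstream, chr4:151045232-151045531: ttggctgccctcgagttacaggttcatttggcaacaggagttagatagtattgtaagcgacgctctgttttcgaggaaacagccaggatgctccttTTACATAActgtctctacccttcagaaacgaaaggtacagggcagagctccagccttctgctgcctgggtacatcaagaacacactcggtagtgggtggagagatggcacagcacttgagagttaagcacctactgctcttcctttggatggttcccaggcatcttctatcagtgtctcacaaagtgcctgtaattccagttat
Nr1d1 upstream, chr11:98783396-98783695: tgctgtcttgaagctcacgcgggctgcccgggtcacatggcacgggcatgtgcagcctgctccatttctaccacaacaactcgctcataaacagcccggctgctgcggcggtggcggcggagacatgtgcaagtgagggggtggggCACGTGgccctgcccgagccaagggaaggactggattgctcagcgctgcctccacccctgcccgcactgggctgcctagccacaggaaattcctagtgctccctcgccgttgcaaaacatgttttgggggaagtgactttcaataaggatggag
The motifs searched on both strands were the canonical E-box CACGTG, the noncanonical E-box CACGTT, the D-box TTANGTAA and the RRE ANTNGGTCA. The Per2 sequence held a D-box and an RRE, the Per3 sequence a D-box and the Nr1d1 sequence a canonical E-box. The Arntl and Cry1 sequences printed here held none of these letters. Of the LSD1 peaks not printed, that in intron 1 of Cry1, at 23.0 kb, held 2 RREs in its central 300 bases. Those in intron 18 of Arntl and at 2.06 kb in Cry2 each held a noncanonical E-box there. Over all 26 LSD1 windows of this length, 1 (3.85%) held the canonical E-box, 2 (7.69%) the noncanonical E-box, 2 (7.69%) the D-box and 2 (7.69%) the RRE. The same letters were found in 5.57%, 4.37%, 2.80% and 2.82% of all 14584 LSD1 windows. With counts of 1 and 2, these shares say little beyond where the letters stand.

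RefSeq promoters on GRCm38.p6, from 250 bases before to 50 bases after the start, matched 9 members with 13 entries, and Per2 was not matched. The stretches that hold a motif are shown on the strand of the gene, with the motif in capitals, because they let the H3K4me2 peaks be placed against known kinds of clock element.
Cry1 canonical E-box, chr10:85185099-85185124: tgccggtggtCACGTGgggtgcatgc
Cry1 noncanonical E-box, chr10:85185118-85185143: acacttcagaAACGTGaggtgccggt
Per1 canonical E-box, chr11:69098773-69098798: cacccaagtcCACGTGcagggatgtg
Cry2 noncanonical E-box, chr2:92434220-92434245: acatggtgggAACGTGagggggcgga
Nr1d1 noncanonical E-box, chr11:98775390-98775415: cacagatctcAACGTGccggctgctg
Per3 first D-box, chr4:151044853-151044880: gacccgcgcgTTATGTAAggtactcggg
Per3 second D-box, chr4:151044806-151044833: ccgcccgcggTTATGTAAcccccgccgt
Arntl RRE, chr7:113207529-113207557: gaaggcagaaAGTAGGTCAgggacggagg
A canonical E-box stood in 2 of the 13 promoters, a noncanonical one in 3, a D-box in 1 and an RRE in 1, where 7.15%, 4.68%, 2.32% and 2.24% of all 32851 promoters held them. The E-boxes of Cry1 began 60 and 79 bases upstream of the RefSeq start, and that of Per1 166 bases upstream. The noncanonical E-boxes began 166 bases upstream in Cry2 and 28 bases upstream in Nr1d1. The D-boxes of Per3 began 205 and 158 bases upstream, and the RRE of Arntl began 28 bases downstream, in the transcribed leader. By first-listed positions, 3 of these 8 sites lay within a control H3K4me2 peak, 2 within an LSD1-LKO peak, 0 within an LSD1 peak and 5 outside every peak. By the broader second-listed peaks, 6 lay within control, 6 within LSD1-LKO and 0 within LSD1. Both E-boxes of Cry1 were covered in all 4 H3K4me2 libraries. The RRE of Arntl, at 113207539-113207547, was covered in both control libraries and in neither LSD1-LKO library. The control peaks there began at 113207486 and 113207483. The LSD1-LKO peaks began at 113207945 and 113207569, so in the second-listed library the peak edge lay just past the element. The noncanonical E-box of Nr1d1 was covered only in the second-listed control library, and the D-boxes of Per3 only in the second-listed LSD1-LKO library. A match of letters is a description and shows no binding.

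By first-listed control peaks, the members' promoters commonly had H3K4me2 on both sides of the annotated 5′ end and none over that base. A promoter peak centered upstream was listed at 8 members in control and at 5 in LSD1-LKO. Over all protein-coding genes, such peaks numbered 5678 in control and 6587 in LSD1-LKO. The scored base is the GENCODE 5′ end, chr11:69095217 at Per1, where the RefSeq start is 69098949. At Arntl, with its 5′ end at 113207465, the control peak began at 113207486. The base at the gene's 5′ end was outside every control peak in 7 of 10 members, against 36.3% of genes with a control promoter peak. It was outside every LSD1-LKO peak in 8 of 10, against 44.5% of genes with an LSD1-LKO promoter peak. In the first-listed control library, 9 members were covered 500 bases upstream of the 5′ end, 3 at the 5′ end and 10 at 750 bases downstream. The corresponding shares of the 13553 protein-coding genes with a promoter peak in either H3K4me2 list, called marked genes below, were 51.2%, 60.5% and 65.8%. In the second-listed control library, 10, 5 and 10 members were covered at these positions, against 60.3%, 75.5% and 75.7% of marked genes. In the first-listed LSD1-LKO library, 6 members were covered 500 bases upstream, 2 at the 5′ end and 9 at 750 bases downstream, against 48.2%, 52.8% and 61.3% of marked genes. In the second-listed LSD1-LKO library 8, 6 and 10 members were covered, against 64.3%, 75.2% and 77.5%. In all 4 libraries fewer clock genes were covered at the 5′ end than at these positions on either side. The share of marked genes was instead higher at the 5′ end than 500 bases upstream. At 250 bases upstream, 6 and 6 members were covered in control, against 59.9% and 70.6% of marked genes. In LSD1-LKO, 1 and 5 members were covered there, fewer than at the 5′ end, against 55.4% and 73.1%. The 5′ end lay under an LSD1 peak at 1 of 10 members, Clock, in both LSD1 libraries, against 21.6% and 25.7% of marked genes.

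**Figure D3:**
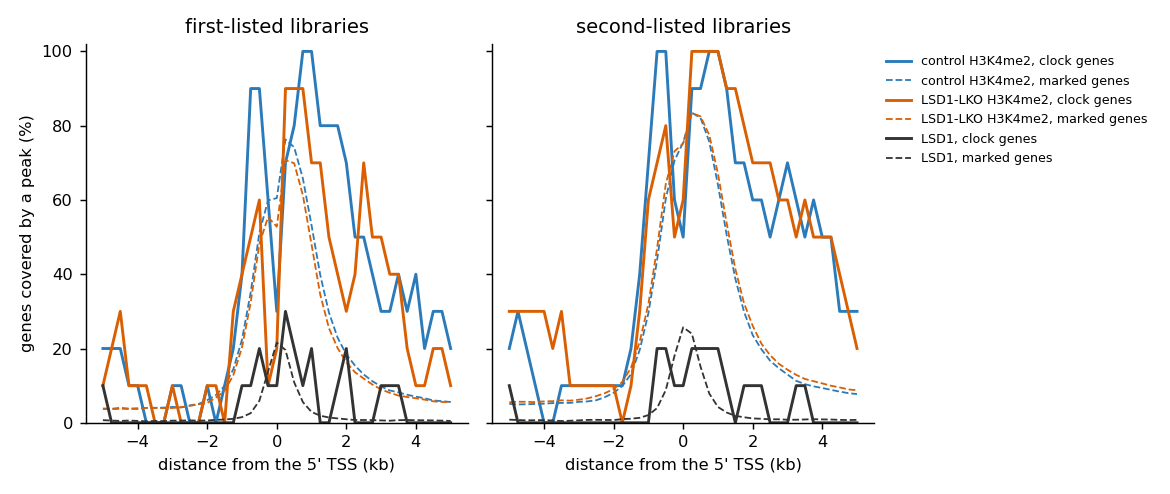
Share of genes covered by a peak (y axis, %) at steps of distance from the 5′ TSS (x axis, kb), for the first-listed and second-listed libraries. Solid lines are the 10 clock genes and dashed lines the 13553 marked genes. In control the clock genes show peaks on both sides of the start, with 3 of 10 covered at the start itself in the first-listed control library.

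To compare control and LSD1-LKO liver at the promoters, the bases under H3K4me2 peaks were summed over the 30243 promoter bases of the members. The control libraries covered 17564 and 20680 bases and the LSD1-LKO libraries 14705 and 19558 bases. The groups therefore overlapped, with a mean of 19122 ± 2203 bases in control and 17132 ± 3432 bases in LSD1-LKO (SD, n = 2 each). The two-sided exact permutation test over libraries gave p = 0.667, and the smallest p that 2 against 2 libraries allow is 0.333. The first-listed library of each H3K4me2 group carries a processing mark in its peak names that the second-listed lacks, so libraries were also compared within each kind. The difference, LSD1-LKO minus control, was -2859 bases in the first-listed pair and -1122 bases in the second-listed pair. By member, the median difference was -291 bases in the first-listed pair and -19.0 bases in the second-listed, compared with -111 and 12 bases over all marked genes.

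Promoter coverage was lower in LSD1-LKO in both pairs at 5 members (Arntl, Per1, Per2, Nr1d1 and Dbp), where this held for 30.0% of marked genes. The first-listed difference changed sign at Nr1d1 with p of at most 1e-05 in each library (89 bases more in LSD1-LKO). At Dbp it did so with promoters of 500 bases on either side (65 bases more). Over all members and settings, second-listed and merged intervals included, 4 of 80 values had the opposite sign. Cry2 turned with the second-listed library alone and with merged intervals (266 bases more in each). Clock, with a first-listed difference of 0, could not be counted as turning, and had 118 bases more with promoters of 2 kb on either side. Promoter coverage was higher in LSD1-LKO in both pairs at 2 members (Per3 and Nr1d2), against 25.3%. Both LSD1-LKO libraries were below both control libraries at 2 members, Arntl and Nr1d1, against 17.3% of marked genes. Both were above at 1 member, Nr1d2, against 14.6%. Each count is at most 2 members from the number that the share of marked genes would give for 10 genes.

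**Figure D4:**
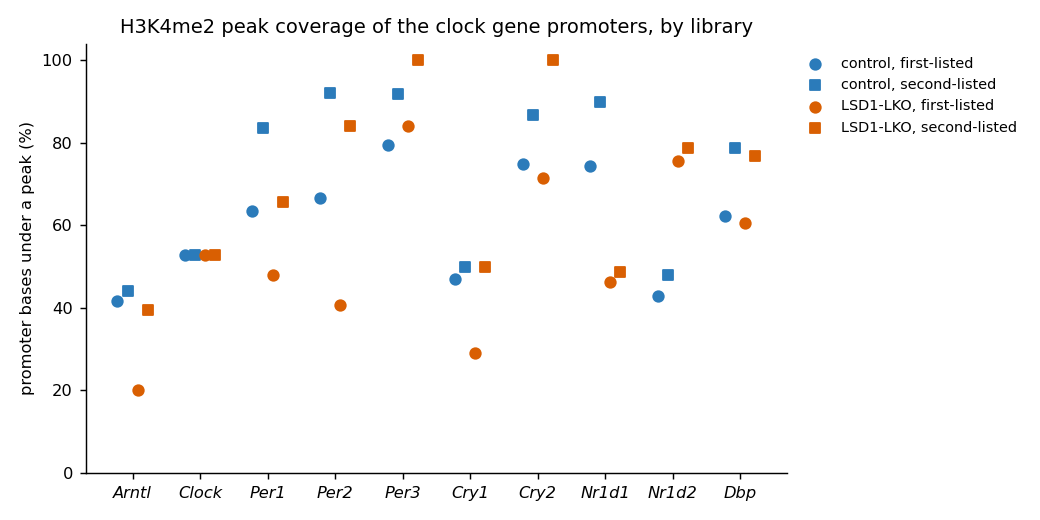
Promoter bases under an H3K4me2 peak (y axis, % of the member's promoter bases) in each of the 4 libraries, for the 10 clock genes (x axis). Control libraries are blue and LSD1-LKO libraries orange, circles are first-listed and squares second-listed; Arntl and Nr1d1 have both orange points below both blue points, and Nr1d2 has both above.

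The control promoter peaks without an LSD1-LKO partner were all upstream of the start. In control liver, 8 members had a promoter peak centered upstream of the 5′ end, 8 peaks in all, and 5 of these 8 (62.5%) overlapped an LSD1-LKO peak, compared with 87.7% of the upstream promoter peaks of all genes. The 3 without a partner were at Per1, Per2 and Nr1d1, and by the positions of the second-listed LSD1-LKO library that at Per2 had one, which makes 6 of 8. At Per2 the overlap was only at the edges. The control peak began at 91460005 and the second-listed LSD1-LKO peak ended at 91460006. All 13 control promoter peaks centered downstream of the 5′ end overlapped an LSD1-LKO peak, compared with 89.7% over all genes. In the other direction, all 5 upstream LSD1-LKO peaks and 13 of 14 downstream ones overlapped a control peak, compared with 88.1% and 90.2%. The exception was a peak at Nr1d2. This split by side was made after the peaks had been seen, and a peak found in only 1 library of a group is in no list.

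The activator gene Arntl lies on chr7:113207465-113314126 on the plus strand. It had no LSD1 promoter peak and 2 distal LSD1 peaks. The stronger LSD1 peak, chr7:113260514-113261085, lay in intron 2, 53.3 kb downstream of the 5′ end, with fold enrichment of 4.83 and 3.92 and percentile 88.3, and it overlapped H3K4me2 in both lists. The other lay in intron 18, with fold enrichment of 2.26 and 1.75 and percentile 0.597, the lowest of the 26, and overlapped neither H3K4me2 list. The Arntl promoter comprised 4094 bases over 4 annotated starts. H3K4me2 peaks covered 1713 and 1808 of these bases in control versus 825 and 1621 in LSD1-LKO, so every LSD1-LKO value was below every control value. The control peak just downstream of the 5′ end, chr7:113207486-113208660, had fold enrichment of 6.45 and 10.1 and ranked at percentile 98.1. The LSD1-LKO peak there, chr7:113207945-113208396, had fold enrichment of 2.65 and 6.72 and ranked at 70.8. The promoter peak just upstream of the 5′ end ranked the other way. It had fold enrichment of 3.73 and 4.68 and percentile 48.0 in control, and 4.80 and 5.37 and percentile 69.7 in LSD1-LKO. The bases covered in control only include the RRE printed above. Over the whole Arntl window the order was the other way, with 3869 and 6389 bases covered in control versus 6078 and 8825 in LSD1-LKO, although these groups overlapped.

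Clock, the partner of BMAL1, lies on chr5:76209868-76304792 on the minus strand and carried the strongest LSD1 peak of the members. That peak, chr5:76303631-76305363, was the only LSD1 peak in its window and covered the 5′ end, with fold enrichment of 6.61 and 5.58 and percentile 98.3. It overlapped one broad H3K4me2 peak in each list, chr5:76303271-76306264 in control and chr5:76303066-76306177 in LSD1-LKO. These had fold enrichment of 5.46 and 7.08 in control versus 7.02 and 5.21 in LSD1-LKO, and ranked at 94.2 and 93.9. Promoter coverage was 2245 of 4246 bases in every library of both groups. These are all 2245 bases of the promoter block at the 5′ end, so coverage was at its ceiling there and could not show a difference, and the other start had no peak. In the window, coverage was 3992 and 4691 bases in control versus 3433 and 3844 in LSD1-LKO, without overlap between the groups. The control list held 3 distal peaks and the LSD1-LKO list 1.

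Per1, a repressor gene of the PER family, lies on chr11:69095217-69109960 on the plus strand and had no LSD1 peak at its own promoters. The 3 LSD1 peaks of its window were at the promoters of neighbors, namely Vamp2 at percentile 76.9 and 9130213A22Rik at 29.3 and 3.97. H3K4me2 covered 3534 and 4662 of 5576 promoter bases in control versus 2682 and 3666 in LSD1-LKO, lower in LSD1-LKO in each pair but with overlapping groups. The promoter region held 5 control peaks and 3 LSD1-LKO peaks, and the strongest, downstream of the RefSeq start, ranked at 94.6 in control and 86.5 in LSD1-LKO. The 5 control peaks but the most upstream were all paired with 1 broad peak of the second-listed library, with fold enrichment of 7.91. The 3 LSD1-LKO peaks were likewise all paired with 1 broad second-listed peak, with fold enrichment of 5.56. The upstream control peak, chr11:69094406-69094822, with fold enrichment of 3.69 and 5.31, overlapped no LSD1-LKO peak.

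Per2, also a PER gene, lies on chr1:91415982-91459324 on the minus strand and held the most first-listed H3K4me2 peaks of the 10 members. Its window had 5 LSD1, 17 control and 22 LSD1-LKO peaks, and 4 of the LSD1 peaks were in introns of Per2. Several H3K4me2 peaks of both groups were parts of broader second-listed peaks, so these counts include pieces of the same second-listed peak. The strongest of these, chr1:91441996-91443184 in intron 6, lay 16.7 kb downstream of the start, with fold enrichment of 5.73 and 4.99 and percentile 95.9. It overlapped 3 control and 3 LSD1-LKO H3K4me2 peaks. The 3 LSD1-LKO peaks shared the second-listed peak chr1:91440086-91446034. The control peaks starting at 91442495 and 91443015 shared chr1:91442501-91446919. A second, in intron 7 at 19.1 kb, had fold enrichment of 4.56 and 3.19 and percentile 78.0 and overlapped H3K4me2 in both lists. The weaker ones in introns 20 and 4 ranked at 32.0 and 29.8, and the latter overlapped no H3K4me2 peak. The LSD1 peak at the promoter of the neighbor Ilkap ranked at 81.1. H3K4me2 covered 14007 and 19506 bases of the Per2 window in control versus 19375 and 26515 in LSD1-LKO, higher in each pair with a narrow overlap between the groups. At the promoter the order was opposite, with 1334 and 1840 of 2001 bases in control versus 815 and 1683 in LSD1-LKO, again overlapping. The rank of the strongest promoter peak was 73.7 in control and 85.7 in LSD1-LKO. The upstream control peak chr1:91460005-91460571, with fold enrichment of 2.05 and 3.79, overlapped no first-listed LSD1-LKO peak. It met a second-listed LSD1-LKO peak only at its edge, at 91460006.

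Per3, another PER gene, lies on chr4:151003652-151044665 on the minus strand, and all its peaks were near the 5′ end or upstream. Its single LSD1 peak, chr4:151045031-151045732, was centered 0.716 kb upstream of the start, within an intron annotated to Camta1, with fold enrichment of 4.30 and 2.38 and percentile 73.0. It overlapped the upstream H3K4me2 peak of both lists. That peak had fold enrichment of 1.67 and 6.48 and percentile 54.1 in control, and 4.34 and 7.68 and percentile 90.3 in LSD1-LKO. The downstream peak ranked at 84.5 in control and 97.2 in LSD1-LKO. H3K4me2 covered 1589 and 1839 of 2001 promoter bases in control versus 1682 and 2001 in LSD1-LKO, higher in each pair with overlapping groups. Both D-boxes printed above fell between the first-listed upstream and downstream peaks. No distal peak of any list was found in the Per3 window.

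Cry1, which encodes a strong repressor of BMAL1 and CLOCK, lies on chr10:85131700-85185064 on the minus strand. Its promoter LSD1 peak, chr10:85184449-85184829, was weak, with fold enrichment of 2.35 and 1.95 and percentile 8.82. A stronger LSD1 peak, chr10:85190024-85190545, lay in intergenic sequence 5.22 kb upstream (at -5.22 kb), with fold enrichment of 4.40 and 4.15 and percentile 86.0, and overlapped H3K4me2 in both lists. Another, in intron 1 at 23.0 kb, ranked at 58.6 and overlapped no H3K4me2 peak. Its central 300 bases held 2 RREs. The control promoter peak, chr10:85182636-85185942, spanned the start, and the LSD1-LKO peak there, chr10:85184035-85185226, lay wholly inside it. Their fold enrichments were 6.34 and 10.1 in control versus 4.43 and 8.68 in LSD1-LKO, and they ranked at 97.7 and 95.4. Promoter coverage was 1879 and 2001 bases in control versus 1163 and 2001 bases in LSD1-LKO, and 2001 bases is the whole promoter block at the 5′ end, which the second-listed libraries of both groups covered in full.

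Cry2, the other CRY gene, lies on chr2:92403646-92434043 on the minus strand and had LSD1 peaks at 4 places. The one called a promoter peak, in intron 1 at 1.09 kb, touched the promoter with 63 bases by the first-listed and 322 by the second-listed peak, and ranked at 36.1. The others, at 11.9 kb in a coding exon, at 2.06 kb in intron 1 and at -9.45 kb, ranked at 46.3, 44.3 and 1.71. Promoter H3K4me2 covered 1501 and 1742 of 2008 bases in control versus 1438 and 2008 in LSD1-LKO, lower in the first pair and higher in the second. The window differed more: it held 6 control and 14 LSD1-LKO peaks, and coverage was 6099 and 8398 bases in control versus 9682 and 12856 in LSD1-LKO, without overlap between the groups. Of the distal peaks, 1 in control and 7 in LSD1-LKO were within the Cry2 gene body. Several of the 7 were parts of broader second-listed peaks. Those starting at 92422584, 92423908 and 92424860 shared chr2:92422927-92425130. Those starting at 92430481 and 92431418 shared chr2:92430341-92435385 with the promoter peaks. The control peak chr2:92431346-92433951 spans the one starting at 92431418 but counts as a promoter peak. An LSD1-LKO peak in an intron of the neighbor Mapk8ip1, with fold enrichment of 7.39 and 4.65 and percentile 86.2, had no control partner.

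Nr1d1, which encodes the heme-binding repressor REV-ERBα, lies on chr11:98767932-98775333 on the minus strand. It had an LSD1 peak just inside the 5′ end, chr11:98775048-98775330, with fold enrichment of 2.75 and 2.35 and percentile 32.6. By first-listed positions it overlapped LSD1-LKO but not control H3K4me2, and by second-listed positions it overlapped both. A second LSD1 peak lay in intergenic sequence 8.21 kb upstream (at -8.21 kb), with fold enrichment of 2.67 and 3.23 and percentile 52.9. This is the peak with the canonical E-box printed above. It stood within broad H3K4me2 peaks that ranked at 88.0 in control and 82.7 in LSD1-LKO. Promoter H3K4me2 covered 1489 and 1799 of 2001 bases in control versus 924 and 974 in LSD1-LKO, so both LSD1-LKO values were below both control values. The difference lay upstream: the control peak chr11:98775499-98776965, with fold enrichment of 4.10 and 5.76 and percentile 61.1, had no LSD1-LKO partner. The downstream peak was listed in both, with fold enrichment of 5.12 and 2.75 in control versus 4.65 and 4.05 in LSD1-LKO. Window coverage was 14202 and 16591 bases in control versus 11211 and 15670 in LSD1-LKO, lower in each pair with overlapping groups.

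Nr1d2, which encodes REV-ERBβ, lies on chr14:18204054-18239127 on the minus strand and was the member with no LSD1 peak in its window. Its promoter showed the opposite order to that of Nr1d1, with 908 and 1016 of 2117 bases covered in control versus 1600 and 1669 in LSD1-LKO, without overlap. The added bases included the peak chr14:18238628-18239023, centered 0.302 kb downstream of the start, with fold enrichment of 3.49 and 6.75, which overlapped no control peak. The strongest promoter peak ranked at 88.3 in control. In LSD1-LKO the strongest was the peak just named, at 77.6, so these ranks belong to different sites. The 2 paralogs thus differed in LSD1 peaks and in the order of promoter coverage, and the difference between them was not tested. In the window, coverage at Nr1d2 was 4350 and 7417 bases in control versus 3834 and 5916 in LSD1-LKO, lower in each pair with overlapping groups.

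Dbp, whose product binds D-boxes, lies on chr7:45705088-45710203 on the plus strand and had 5 LSD1 peaks in its window but none within 1 kb of a Dbp start. The strongest, chr7:45706613-45707125, lay in a coding exon of Dbp 1.78 kb downstream, with fold enrichment of 6.09 and 2.14 and percentile 85.0. Within each library it ranked at 97.7 and 15.1, so its place rests on the first-listed library. A second in the gene, at 3.26 kb, ranked at 16.8. Both overlapped H3K4me2 in both lists. By first-listed positions the LSD1 peak at the promoter of Sphk2 and those at -14.1 and -16.3 kb overlapped neither. By second-listed positions the peak at Sphk2 overlapped control H3K4me2. Dbp had the highest-ranking promoter H3K4me2 peak of the members in control, chr7:45705590-45707795, with fold enrichment of 8.46 and 8.75 and percentile 98.9. The strongest LSD1-LKO promoter peak ranked at 95.9. Promoter coverage was close in the groups, 1372 and 1728 of 2197 bases in control versus 1331 and 1690 in LSD1-LKO. Window coverage was 8635 and 11487 bases in control versus 11518 and 13911 in LSD1-LKO, without overlap, and included an LSD1-LKO peak at the Rpl18 and Sphk2 promoters, with fold enrichment of 5.17 and 7.16, that had no control partner.

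Ranks gave another view of the promoter peaks, because they compare each peak only with its own list. The lists differ in length and were made at unknown depth, so a difference in rank between them is given as a description. The strongest promoter peak was taken in each list separately, and at Nr1d1 and Nr1d2 it was a different site in each list. At Nr1d1 the downstream peak, strongest in LSD1-LKO, ranked at 53.1 in control and 60.5 in LSD1-LKO. At Nr1d2 the strongest control peak ranked at 88.3, and the LSD1-LKO peak that overlapped it at 75.3. The percentile of the strongest promoter peak was lower in LSD1-LKO at 8 members, where this held for 49.8% of the 12181 genes with a promoter peak in both lists, and higher at 2, Per2 and Per3. The median was 94.4 in control and 87.1 in LSD1-LKO, and the median difference by member was -2.65 percentile points, compared with 0.0507 over those genes. Among all genes the strongest promoter peak had a median percentile of 81.7 in control and 82.2 in LSD1-LKO, so the median of the members was higher in both. Not every member was above these values. Per2 (73.7) and Nr1d1 (61.1) were below in control, and Arntl (70.8), Nr1d1 (60.5) and Nr1d2 (77.6) in LSD1-LKO. Ranked within each library, the strongest peak of the LSD1-LKO list was lower than that of the control list in both pairs at 6 members (Arntl, Per1, Cry1, Cry2, Nr1d2 and Dbp). This held for 24.5% of the 12181 genes. It was higher in both pairs at 1 member, Per3, against 25.8%. The pairs went opposite ways at Per2, Clock and Nr1d1. At Arntl the percentiles were 94.7 and 97.4 in control versus 31.3 and 84.6 in LSD1-LKO, so every LSD1-LKO value was below every control value, by much more in the first-listed pair. At Clock they were 88.0 and 94.8 in control versus 99.1 and 80.5 in LSD1-LKO, so the small difference between its list ranks joins a rise in the first pair and a fall in the second. At Per2 they were 91.6 and 64.2 in control versus 89.7 and 83.5 in LSD1-LKO, and at Nr1d1 65.9 and 65.6 versus 83.9 and 51.6.

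**Figure D5:**
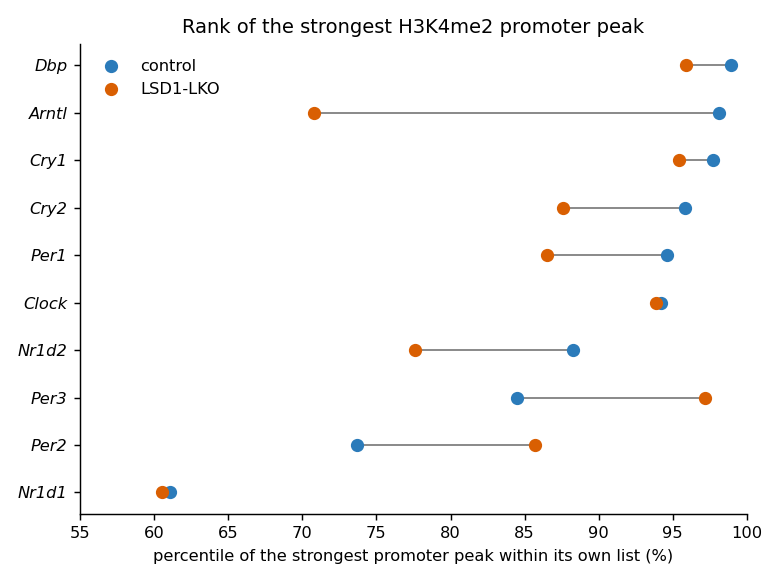
Percentile (x axis, %) of the strongest H3K4me2 promoter peak of each clock gene within the control list (blue) and the LSD1-LKO list (orange), genes ordered by the control value. The strongest peak was taken in each list separately and is a different site at Nr1d1 and Nr1d2. Arntl moves from 98.1 to 70.8, and Per2 and Per3 are the genes with a higher rank in LSD1-LKO.

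Over the whole windows, H3K4me2 coverage of the members did not separate the groups. Of 832043 bases, 76963 and 102137 were covered in control versus 83214 and 117318 in LSD1-LKO, a mean of 89550 ± 17801 and 100266 ± 24115 bases (SD, n = 2 each; two-sided exact permutation test, p = 0.667, smallest possible 0.333). LSD1-LKO covered 6251 bases more in the first-listed pair and 15181 more in the second-listed pair, although the first of these differences turned negative when the peaks were limited to those with p of at most 1e-05, or q of at most 0.05, in each library, and was 570 bases with a flank of 50 kb. Coverage was lower in both pairs at 4 members (Clock, Per1, Nr1d1 and Nr1d2), against 30.1% of marked genes, and higher in both at 4 (Arntl, Per2, Cry2 and Dbp), against 35.1%. Both LSD1-LKO libraries were below both control libraries at 1 member, Clock, against 12.7% of marked genes, and above them at 2, Cry2 and Dbp, against 15.1%. The members thus divided evenly, and their shares were near the background.

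Of the 85 control peaks in the clock windows, 65 (76.5%) had a partner in LSD1-LKO, where 68.1% of the full control list did. Conversely, 70 (71.4%) of the 98 LSD1-LKO peaks had a control partner, against 64.1% of the full LSD1-LKO list. By kind of site, 18 of 21 own-promoter and 14 of 14 other-promoter control peaks overlapped an LSD1-LKO peak, together 91.4%, and 33 of 50 distal ones did, 66.0%. In the full control list these shares were 88.7% at promoters and 54.2% away from them. Distal peaks were also narrower and lower in rank, with a median percentile of 35.2 against 81.4 for own-promoter peaks in control.

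The other genes of the clock pathway, listed by role, also carried promoter H3K4me2. Of 20 such genes, 20 had a promoter H3K4me2 peak in control and 20 in LSD1-LKO, against 58.8% and 58.9% of all protein-coding genes. An LSD1 promoter peak was found at 7 of 20, against 23.6% of all protein-coding genes and 38.8% of genes with a control H3K4me2 promoter peak. Among these 7 were Tef, a relative of Dbp, Bhlhe40 and Bhlhe41, which encode E-box repressors, Ciart, Usp2 and Wee1. The highest-ranking was at Bhlhe40, at percentile 98.4 with fold enrichment of 5.21 and 6.92, followed by Bhlhe41 at 91.2 and Wee1 at 90.7. Including distal sites, 13 of 20 had an LSD1 peak in the window, against 51.4% of all genes. Promoter H3K4me2 coverage was lower in LSD1-LKO at 13 of 20 in the first-listed pair and at 4 in the second-listed. In both pairs 3 of 20 were lower and 5 higher, against 30.0% and 25.3% of marked genes. As at the members, the pairs of libraries thus gave different counts.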

How the data were processed

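The samples comprised 6 ChIP libraries and 6 control libraries of mouse liver. Reads were mapped to mm10 with Bowtie 2 by the authors, narrow peaks were called for each library with MACS2, and peaks shared by both libraries of a group were kept with BEDtools 2.25.0. Control libraries are input according to the labels and IgG ChIP-seq according to the methods. The deposited lists give a fold enrichment (a ratio of ChIP to control signal), a −log10 p-value and a −log10 q-value for each library's peak. Listed p-values reach about 0.05, looser than the methods state. The peak names of the first-listed library of each H3K4me2 group carry a mark of a read-processing tool that the second-listed lacks. Integer scores and summit offsets (12 columns of per-library values) were not used. Only peaks shared by both libraries, overlapping by at least 50.0% of the first-listed peak, are listed, and no reads, so depth is unknown and weak peaks of 1 library cannot be seen.

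Overlap of at least 1 bp was counted, with genes of GENCODE mouse release 21. Covered bases were counted once. Groups were compared with a two-sided exact permutation test over 2 against 2 libraries, and p-values measure only the spread between these samples. Interval functions were tested on simulated data. All members are described. Of the other clock genes, those with an LSD1 promoter peak or with promoter H3K4me2 in 1 list only were to be named, and neighbors were named where a peak lay in their promoter. The values of 1 gene that this rule names are not reported here. The members and lists were chosen with earlier results of these data known. Python 3.11.15, numpy 2.4.6, pandas 2.3.3 and matplotlib 3.10.9 were used. Alternatives covered promoter width, TSS choice, flank, overlap, peak threshold, the second-listed library alone and merged intervals.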

Additional observations from a re-analysis of the deposited data

How the results depend on the processing

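Across 11 settings planned for the analysis, 56 of 71 values kept their direction or stayed within 1.5 times the reported count, 13 moved further and 2 reversed. With p at or below 1e-05 in both libraries, 1 member (Clock) kept an LSD1 promoter peak, the windows held 5 LSD1, 37 control and 39 LSD1-LKO peaks, 2 LSD1 peaks overlapped control H3K4me2, and summed window coverage in LSD1-LKO minus control was -7682 bases. With q at or below 0.05 these were 1 member, 5, 56 and 58 peaks, 3 overlaps and -3743 bases. With p at or below 0.01, 11 LSD1 peaks overlapped control H3K4me2. LSD1-LKO window peaks numbered 64 by the second-listed library alone and 61 as merged intervals. Fewer peaks pass a stricter threshold by construction, and second-listed peaks are broader. Leaving out the first-listed libraries gave 5, 10 and 10 members with LSD1, control and LSD1-LKO promoter peaks, 26, 67 and 64 window peaks, 19 overlaps, and differences of -1122 bases at promoters and 15181 bases in windows. Summed promoter coverage stayed lower in LSD1-LKO in the 8 settings in which it was computed (both promoter widths, 1 TSS per gene, the 3 peak thresholds, the second-listed library alone and merged intervals), with exact permutation p from 0.667 to 1.00 in the 6 that kept both libraries. By gene, LSD1 promoter peaks were found in 9 of 9 settings at Clock, 7 at Per3 and Nr1d1, 6 at Cry1, 5 at Cry2 and 1 at Dbp (2 kb either side). Ranking promoter peaks within each library, and placing motif sites and upstream peaks by the second-listed library, were chosen after seeing the data. The lower rank in LSD1-LKO held at 7 members in the first-listed and 8 in the second-listed libraries. Second-listed positions raised the sites within control peaks from 3 to 6 and within LSD1-LKO peaks from 2 to 6. No paired analysis was possible because the deposited columns carry no replicate numbers, and the first-listed and second-listed pairs compared above share only their place in the lists and, for H3K4me2, a mark in the peak names. Depth is unknown, and peak calls depend on it.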
